A study of Arabidopsis thaliana with 12 samples.

Results

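The 3 mTERF genes described here are AT5G55580 (mTERF9), AT1G61990 and AT1G62010, nuclear genes of Arabidopsis thaliana whose proteins belong to the family of mitochondrial transcription termination factor-like proteins. They are 3 of the 691 genes that had a feature of their own on an array of 3439 features. They were chosen by family membership, with their differences between pam46 and WT already known. Family membership alone does not single them out, because 8 mTERF genes had a feature of their own. The 3 are thus a subset picked with this contrast known, and the 5 others are described further below. The differences of the 3 genes are therefore given as a description, with no p-value printed. Where it is said below that they were called (adjusted p under 0.05), this too is description only. Total RNA was measured in 6 samples of pam46, a mutant in ecotype Columbia 0 with altered photosynthesis and a defect in a protein that the labels call unknown, and in 6 samples of WT plants of the same ecotype. Samples are numbered 1 to 6 in each group. The sources used here do not give the mutated gene, the tissue, or the age and growth of the plants. Separate plants or cultures are not stated for the samples, so the spread between them may be technical. Samples of consecutive numbers (1 and 2, 3 and 4, 5 and 6) deviated together across the array and may be repeat readings, in which case n is 3 per group rather than 6 and the SDs and SEs below, which treat all 6 as independent, can be too small. Setting pam46 against WT shows how transcript levels differ in a mutant with altered photosynthesis. An effect of photosynthesis cannot be told apart from other effects of the mutation in this design.

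The mTERF proteins take their name from a human mitochondrial protein that ends transcription, and plants have many more of them than animals. They are built of helical repeats that bind nucleic acids, they are encoded in the nucleus, and those that have been studied act in chloroplasts or mitochondria on transcription, on the splicing of transcripts or on the ribosomes there. mTERF9 is a chloroplast protein that takes part in assembly of the plastid ribosome and in plastid translation. AT1G61990 and AT1G62010 lie in a tandem cluster of mTERF genes on chromosome 1, with 1 protein-coding gene, AT1G62000, between them, while mTERF9 is a single gene on chromosome 5.

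The mTERF9 feature was brighter in pam46, and the features of AT1G61990 and AT1G62010 were dimmer. Relative to the quantile-normalized scale, mTERF9 was 2.75-fold higher in pam46, AT1G61990 was 2.03-fold lower and AT1G62010 was 1.42-fold lower. In mTERF9 and AT1G61990 the 6 pam46 samples lay apart from the 6 WT samples, on the deposited and on the normalized values. In AT1G62010 the groups lay apart as deposited and overlapped in 1 pam46 sample after normalization. Over all features, the 6 pam46 samples were all above the 6 WT samples in 5.38% as deposited and 10.7% after normalization, and all below them in 23.6% and 12.5%, and nothing about these genes is read from their place in these shares.

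The deposited intensity of mTERF9 was 0.640, 0.642, 0.676, 0.653, 0.533 and 0.541 in pam46 samples 1 to 6, against 0.324, 0.300, 0.325, 0.359, 0.254 and 0.244 in WT samples 1 to 6. The lowest pam46 sample was thus above the highest WT sample, and samples 5 and 6 were the dimmest of both groups. The mean was 0.614 ± 0.0613 in pam46 and 0.301 ± 0.0446 in WT (SD, n = 6 each). After quantile normalization the difference, pam46 minus WT, was 1.46 ± 0.16 on the log2 scale (SE, n = 6 per group).

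The deposited intensity of AT1G61990 was 0.213, 0.252, 0.0982, 0.0712, 0.260 and 0.272 in pam46 samples 1 to 6, against 0.624, 0.475, 0.595, 0.394, 0.537 and 0.468 in WT samples 1 to 6. No pam46 sample reached the dimmest WT sample, and pam46 samples 3 and 4 were well below the other 4 pam46 samples. The mean was 0.194 ± 0.0876 in pam46 and 0.515 ± 0.0862 in WT (SD, n = 6 each). The difference after normalization was -1.02 ± 0.28 (log2, SE). Without samples 3 and 4 of both groups it was -0.59, so this pair of numbers carried much of its size.

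The deposited intensity of AT1G62010 was 0.369, 0.255, 0.195, 0.136, 0.280 and 0.260 in pam46 samples 1 to 6, against 0.461, 0.509, 0.504, 0.429, 0.443 and 0.497 in WT samples 1 to 6. Samples 3 and 4 were again the dimmest of pam46, and WT samples lay close together. The mean was 0.249 ± 0.0790 in pam46 and 0.474 ± 0.0340 in WT (SD, n = 6 each). The difference after normalization was -0.51 ± 0.17 (log2, SE), and -0.26 without samples 3 and 4 of both groups. After normalization 5 of 6 pam46 samples were below every WT sample, and pam46 sample 1, at 0.411, fell within the WT range of 0.365 to 0.489.

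**Figure D1:**
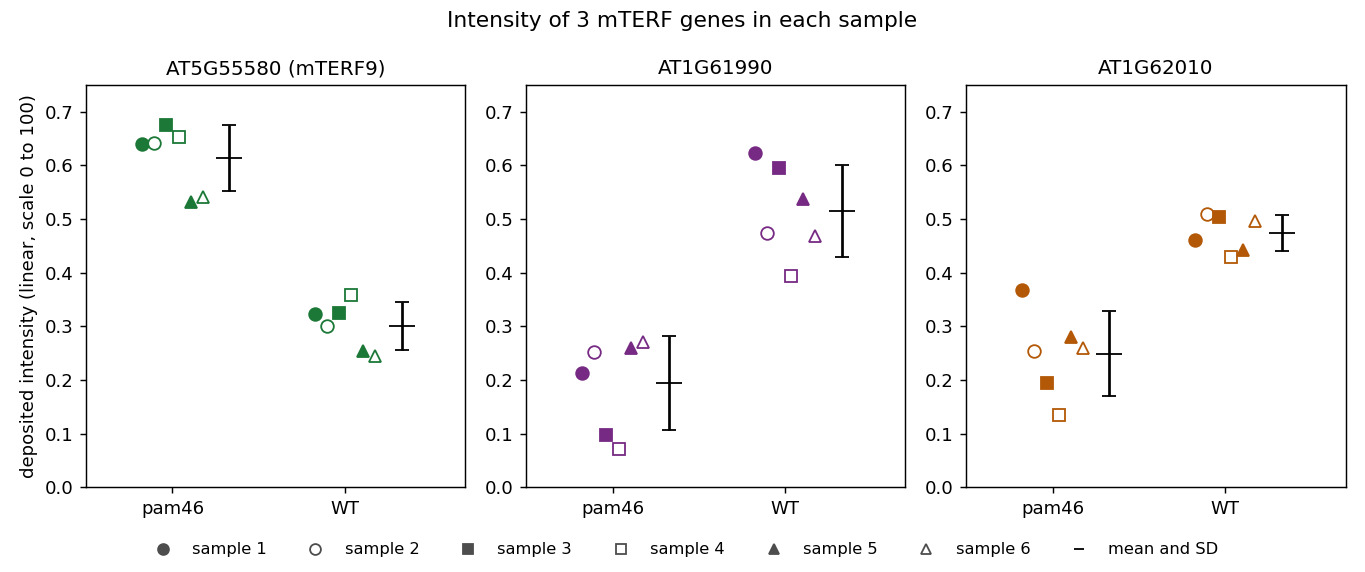
Deposited intensity (linear, vertical axis) of the 3 mTERF genes in each of 6 pam46 samples (left) and 6 WT samples (right), with the marker giving the sample number and the bar the mean and SD. The pam46 samples of mTERF9 (0.533 to 0.676) lie above all WT samples (0.244 to 0.359), those of AT1G61990 and AT1G62010 lie below all WT samples, and pam46 samples 3 and 4 are the lowest in both cluster genes.

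A feature's place among all 3439 features of the same sample does not depend on how that sample is scaled. The mTERF9 feature stood between the 75.3rd and 81.7th percentile of intensities in pam46 samples, against the 37.0th to 57.1st percentile in WT samples. AT1G61990 stood between the 24.5th and 56.1st percentile in pam46 and between the 60.6th and 74.6th in WT. AT1G62010 stood between the 38.5th and 64.6th percentile in pam46 and between the 61.0th and 70.0th in WT, so its ranks overlapped. The opposite directions of mTERF9 and AT1G61990 were thus present in the ranks. Quantile normalization rests on these same ranks, so they restate the normalized values and are no separate check.

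All 3 features had an adjusted p under 0.05 in the limma fit (12 samples, quantile-normalized log2 values), as had 41.1% of the 3438 genes or features tested. Higher in pam46 was 1 of the 3, against 19.5% of features, and lower were 2 of the 3, against 21.6%. This fit leaves out the pairing by sample number, and with the replicate number as a block AT1G62010 was no longer called (-0.51 ± 0.17, log2, SE). Because this contrast was known when the genes were chosen, nothing is read from these counts. The median intensity of a sample was 0.199 to 0.226 in pam46 and 0.296 to 0.341 in WT, and on the values as deposited the split of calls moved to 373 higher and 1301 lower, from 669 higher and 744 lower as normalized. The median log2 difference of all features was -0.36 on the deposited scale and 0 after normalization. A lower value on the deposited scale is to be read against this shift, while mTERF9 ran against it. With samples of consecutive numbers averaged, which leaves 3 against 3, the same differences had an SE of 0.24 for mTERF9, 0.38 for AT1G61990 and 0.21 for AT1G62010. In that fit mTERF9 was called, AT1G61990 and AT1G62010 were not, and 17.1% of all features were called. Among the 3438 differences, 189 were higher than that of mTERF9, 396 were lower than that of AT1G61990 and 902 were lower than that of AT1G62010.

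Samples of the same number in both groups deviated together across the array, and so did consecutive numbers within a group, so the difference was also taken within each number. For mTERF9 it was positive in 6 of 6 numbers and ran from 1.18 (number 4) to 1.74 (number 6) on the log2 scale. It thus varied little, and a shift shared by both groups at a number, as in samples 5 and 6, cancels in this difference. For AT1G61990 it was negative in 6 of 6 numbers and ran from -2.02 (number 3) to -0.31 (number 6). For AT1G62010 it was negative in 5 of 6, from -1.08 (number 4) to 0.10 (number 1). By pairs of consecutive numbers, mTERF9 averaged 1.34, 1.31 and 1.73 for numbers 1 and 2, 3 and 4, and 5 and 6. AT1G61990 averaged -0.73, -1.88 and -0.45 for these pairs. AT1G62010 averaged -0.20, -1.01 and -0.31. Both cluster genes thus differed most in numbers 3 and 4, where mTERF9 differed least by a narrow margin.

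**Figure D2:**
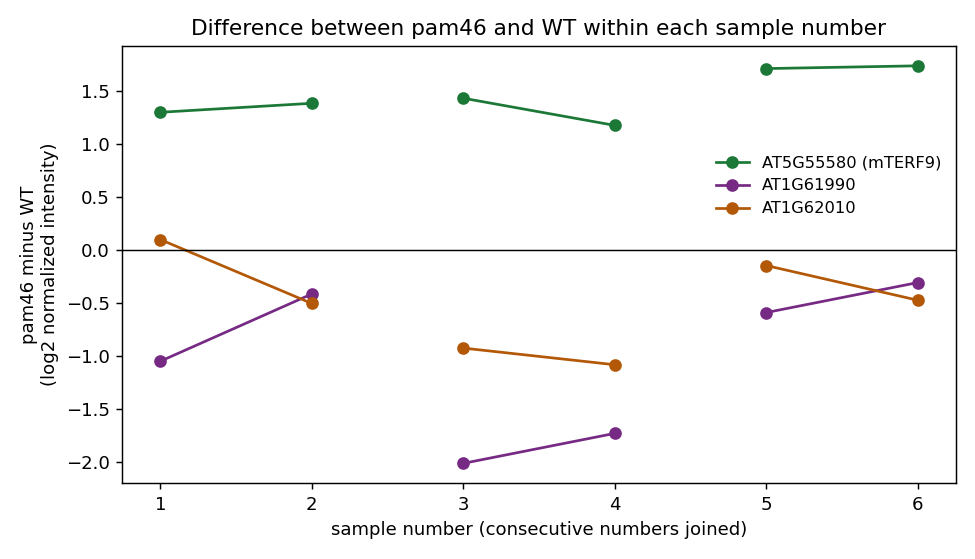
Difference between pam46 and WT (log2 normalized intensity, vertical axis) within each sample number (horizontal axis) for the 3 mTERF genes, with consecutive numbers joined. mTERF9 stays between 1.18 and 1.74, and the cluster genes lie at or below 0.10 and are lowest in numbers 3 and 4.

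mTERF9, the nuclear gene of a chloroplast protein, was set against the cluster genes within each sample, by the difference of their log2 values. This quantity is free of any scaling factor common to the features of a sample on the values as deposited. The change of mTERF9 exceeded that of AT1G61990 by 2.48 ± 0.37 on the log2 scale (SE, n = 6 per group), and by 2.60 ± 0.41 on the values as deposited. It exceeded the change of AT1G62010 by 1.97 ± 0.24, and by 2.03 ± 0.26 as deposited. In both comparisons all 6 pam46 samples lay above all 6 WT samples on either scale. The cluster genes were closer to each other: the change of AT1G61990 minus that of AT1G62010 was -0.51 ± 0.20 (log2, SE), and 3 of 6 pam46 samples were below every WT sample. These values restate the contrast by which the genes were known and carry no test.

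Of the 35 loci in a list of mTERF genes, 8 had a feature of their own, the 3 genes above and 5 others, and another 11 were annotated only on features shared by several genes. Of the 5 others, 1 rose, 1 fell and 3 did not pass the test (limma, Benjamini-Hochberg adjustment over all 3438). Their median log2 difference was 0.03, beside a median of 0 over all features. The 2 called of 5 stand beside 41.1% called over all features (19.5% higher and 21.6% lower). The shares are so close that the count says nothing particular about the family. With consecutive numbers averaged, AT1G79220 alone of the 5 was called, beside 17.1% of all features. The 5 are also what was left after 3 of the 8 were chosen with this contrast known.

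AT3G18870 rose in pam46 by 1.13 ± 0.33 on the log2 scale (SE, n = 6 per group, limma adjusted p = 0.0183). Its deposited intensity was 1.01 ± 0.158 in pam46 and 0.583 ± 0.274 in WT (SD, n = 6 each). The groups overlapped, with 4 of 6 pam46 samples above every WT sample, and the call ended with consecutive numbers averaged (adjusted p = 0.175) and with these averages and a block for the pair of numbers (adjusted p = 0.0999).

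AT1G79220 fell by 0.77 on the log2 scale (± 0.19 SE, limma adjusted p = 0.00712). Its deposited intensity was 0.703 ± 0.180 in pam46 and 1.29 ± 0.235 in WT (SD, n = 6 each). Every pam46 sample was below every WT sample as deposited, which was so in 23.6% of all features. After normalization 3 of 6 pam46 samples were below every WT sample. It was called in 19 of 25 alternatives, among them consecutive numbers averaged (limma adjusted p = 0.0425) and the replicate number as a block (adjusted p = 0.0186). It was no longer called with samples scaled to equal medians (-0.34, adjusted p = 0.204) or after subtracting the features near it in number (-0.45, adjusted p = 0.250). The call also ended with consecutive numbers as a random block (adjusted p = 0.115), with the averages and the block together (adjusted p = 0.0906) and without samples 3 and 4 of both groups (adjusted p = 0.0651).

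The other 3 did not pass. AT1G62150, which belongs to the same stretch of mTERF loci on chromosome 1, was at 0.23 ± 0.16 (log2, SE, limma adjusted p = 0.282). Unlike AT1G61990 and AT1G62010 it was not lower in pam46, and it ran from 0.04 to 0.60 over 25 alternatives. It passed as higher when samples were scaled to equal medians (0.60, adjusted p = 0.0175) and when corrected for neighbouring features (0.59, adjusted p = 0.0213). AT3G46950 was at -0.29 ± 0.18 (limma adjusted p = 0.220) and turned to 0.16 with equal medians (adjusted p = 0.498). With the replicate number as a block it passed as lower (adjusted p = 0.0351), but not with consecutive numbers averaged and the block together (adjusted p = 0.207). AT4G09620 was at 0.03 ± 0.11 (limma adjusted p = 0.879), passed as lower on the values as deposited (-0.35, adjusted p = 0.0176) and passed as higher after neighbour correction (0.91, adjusted p = 0.00185). Its direction thus differed between ways of processing.

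Another 6 features carried several genes in the annotation, all of them in the mTERF list, and cannot be given to any one of them. Feature 4364, whose annotation lists AT5G55580 together with another gene, was at -0.75 ± 0.23 (log2, SE, limma adjusted p = 0.0205). Its deposited intensity was 0.169 ± 0.0431 in pam46 and 0.432 ± 0.144 in WT (SD, n = 6 each). It thus went the other way from the feature of mTERF9 alone. Feature 1484, which lists AT1G61990 with 3 other genes, was at 0.67 ± 0.63 (limma adjusted p = 0.436), unlike the lower values on the feature of AT1G61990 alone. Features 1496 and 1514 list the same pair of other mTERF genes from the chromosome 1 cluster and were at 0.15 ± 0.11 and -0.26 ± 0.17. Feature 4021 fell by 0.50 (± 0.15 SE, limma adjusted p = 0.0194), and feature 2165 was at 0.67 ± 0.41. The levels of mTERF9 and of AT1G61990 therefore rest on 1 feature each, and mTERF genes of similar sequence may bind the same feature, which was not tested.

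**Figure D3:**
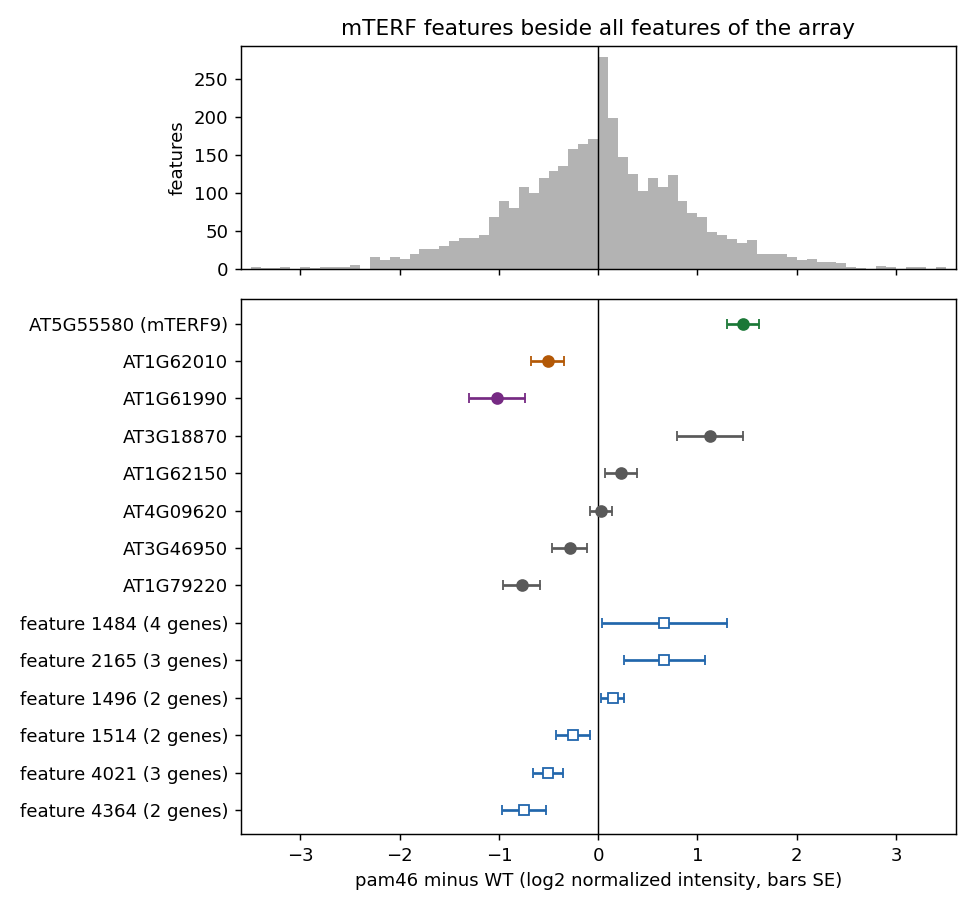
Upper panel, number of features by difference between pam46 and WT (log2 normalized intensity) over all features of the array. Lower panel, the difference with its SE for the 3 mTERF genes described here, the 5 other mTERF genes with a feature of their own (filled circles) and 6 features shared by several mTERF genes (open squares), with mTERF9 at 1.46 and shared feature 4364 at -0.75.

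Features close in number may also be close on the array, but its layout is not known here. Values were therefore also corrected by the features 1, 6 and 12 numbers away. The features of AT1G61990 and AT1G62010 lie 12 numbers apart and so are neighbours of each other in this sense. Of 6 such neighbours of AT1G62010, 5 were lower in pam46, with a median log2 difference of -0.61. After subtracting the median of its neighbours AT1G62010 was at 0.45 ± 0.24, and at 0.21 ± 0.33 with the mTERF neighbour left out, so the sign of its difference turned. AT1G61990 was at -0.64 ± 0.23 after this correction and at -0.83 ± 0.24 without mTERF neighbours. mTERF9 was at 1.38 ± 0.15. A very bright feature 12 numbers from mTERF9 averaged 82.5 in pam46 and 64.5 in WT (deposited intensity), a smaller relative difference than that of mTERF9 and in the same direction. Its part in the mTERF9 value was not tested.

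For each gene the 3 features of a single gene with the most similar pattern were taken from 614 that were above the floor in at least 9 of 12 samples. Likeness was Pearson's r of the deviations from the group means over the 12 samples, which leaves the difference between pam46 and WT out. The 12 points share the sample numbers, whose pairs deviated together, and r is given as a description. For mTERF9 they were AT3G54930 (r = 0.94), DI21 (0.94), a drought-induced gene, and PIFI (0.93), whose product is needed for the rise of chlorophyll fluorescence after illumination. The difference between pam46 and WT of these 3 was -1.01, 0.28 and 0.27 on the log2 scale, so genes that followed mTERF9 from sample to sample did not share its difference between the groups. For AT1G61990 they were AT1G04330 (r = 0.88), AT2G48090 (0.86) and CYN (0.85), the gene of cyanase, with differences of -1.82, -1.21 and -0.31. For AT1G62010 they were AT1G61590 (r = 0.82), AT2G05120 (0.81) and AT2G26110 (0.79), with differences of 0.07, -0.70 and -1.80.

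Few other genes in the lists for organelle gene expression had a feature of their own. Of 21 loci for plastid transcription and plastid development factors, 1 was measured so, and of 11 loci for plastid splicing factors none was. PAC, the gene of PALE CRESS, a chloroplast protein needed for plastid development, was at 0.09 ± 0.22 (log2, SE, limma adjusted p = 0.794). Its deposited intensity was 0.342 ± 0.0616 in pam46 and 0.459 ± 0.157 in WT (SD, n = 6 each), and it passed in none of 25 alternatives.

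**Figure D4:**
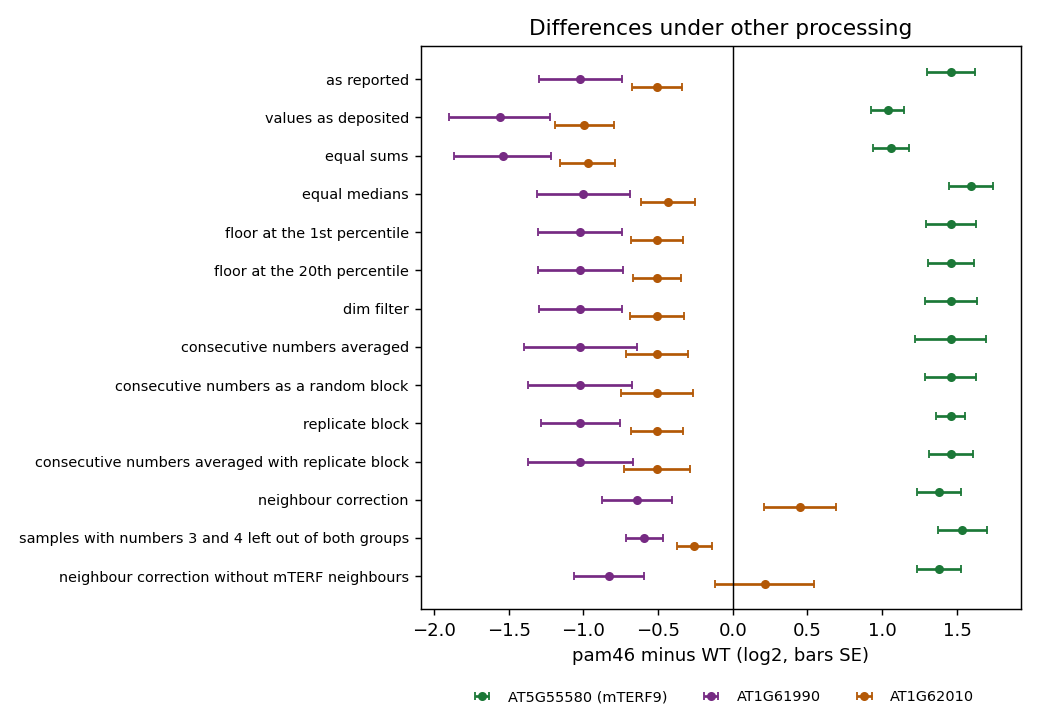
Difference between pam46 and WT (log2, horizontal axis, bars SE) of the 3 mTERF genes as reported and under 13 other ways of processing (vertical axis). mTERF9 lies between 1.04 and 1.60 throughout, AT1G61990 between -1.56 and -0.59, and AT1G62010 crosses 0 with the neighbour correction.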

How the data were processed

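The deposited table holds an intensity per array feature and sample, linear and between 0 and a cap of 100. The sources used here do not say how the authors made it. Genes were named from the platform annotation held by GEO, possibly outdated, for features with 1 gene (692, of which 690 were matched to the RefSeq table of assembly TAIR10.1, used for names and gene order). For a gene with several features the brighter was kept, which left 3438 genes or features. Summed intensities differed by up to 1.11 times and medians by up to 1.71 times between samples, so values were quantile-normalized, set to a floor at the 5th percentile of positive values (0.0278) and put on a log2 scale. No value of the 3 genes was at the floor. The difference between pam46 and WT was fitted with lmFit and eBayes of limma 3.58.1 (R 4.3.3, two-sided, Benjamini-Hochberg adjustment), and the script was tested on simulated data. The simulated samples were independent, so that test does not cover samples that deviate together, as those here did. Figures were drawn with matplotlib 3.10.9.

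Same-numbered samples of pam46 and WT deviated together (r from 0.24 to 0.57 across features), as did consecutive numbers within a group (0.26 to 0.67). The reported fit has no block, so its errors treat samples as independent. The shared numbers in the labels were taken as pairing only in alternatives with a block and in the differences within each number. Arrays have no read depth, and precision depends only in part on how many there are. In the 6 pam46 samples the SD of the deposited intensity was 45.1% of the mean for AT1G61990, 31.7% for AT1G62010 and 10.0% for mTERF9. The genes and lists were chosen with earlier results of these data known. Besides the 3 genes, the text names mTERF and plastid factor genes of the lists with a feature of their own, and for each gene the 3 features most like it in pattern. Lists that needed gene descriptions (plastid and mitochondrial ribosomal proteins, pentatricopeptide repeat proteins, RNA helicases and binding proteins) were not used here.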

Additional observations from a re-analysis of the deposited data

Results flagged for a closer look

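Dixon's test for a sample standing apart compares the distance of the highest or lowest of 6 samples from its neighbour with the full range of its group. This was done for the 3 mTERF genes, the 5 other mTERF genes and PAC, on log2 normalized intensity. Of 18 groups 1 held such a sample, and chance gives about 1 in 20 if samples are independent. For AT1G79220, WT sample 6 was at -0.26, and the next lowest WT sample was at 0.34. Without this sample AT1G79220 was at -0.89 (limma adjusted p = 0.00211). No sample of mTERF9, AT1G61990 or AT1G62010 stood apart in this way. The test can miss 2 samples that deviate together, because each is then the other's neighbour. In AT1G61990, pam46 samples 3 and 4 were at -2.81 and -3.20, and the next lowest pam46 sample was at -1.97.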

How the results depend on the processing

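Of 25 alternatives, 2 were chosen after seeing the data: leaving out numbers 3 and 4 of both groups, and the neighbour correction without mTERF neighbours. The count of 1413 called features moved by over 1.5 times in 3 alternatives, to 587 with consecutive numbers averaged, 922 with them as a random block and 693 with averages and the replicate block together. It was 1315 to 1390 with 1 sample left out. Calls of the 3 genes are given as a description, since they were chosen with this contrast known. mTERF9 was higher in pam46 and called in all 25 alternatives, at 1.04 with unscaled values, 1.06 with equal sums and 1.37 to 1.54 with 1 sample left out. AT1G61990 was lower in all 25 and called in 22, at -1.56 as deposited, -1.54 with equal sums and -1.12 to -0.81 with 1 sample left out. Its call ended with averaging, with the random block and with averaging and the replicate block together. AT1G62010 was called in 14, at -0.99 as deposited, -0.97 with equal sums and -0.61 to -0.38 with 1 sample left out. Its sign turned to 0.45 with the neighbour correction and to 0.21 without mTERF neighbours, and the cause was not tested. Its call also ended without WT sample 2, WT sample 3 or pam46 sample 3, with equal medians, averaging, the random block, the replicate block (-0.51 ± 0.17 SE) and averaging with the block, and without numbers 3 and 4. The replicate block on all 12 samples called 1658 features and ended no other call of the 3 genes.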
